A study of Homo sapiens with 4 samples.

Results

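The 8 E2F transcription factor genes, E2F1 to E2F8, and the genes of the pocket proteins p107 (RBL1) and p130 (RBL2) were followed in 4 libraries of the human cell line MDA-MB-231. They were found by gene symbol among the 58735 genes of the deposited count table. All 10 were present, and all 10 were among the 14585 genes kept because they averaged at least 1 CPM, the usual unit of read counts scaled to library size. MDA-MB-231 is an established triple-negative breast cancer line, and every library here came from cells transduced with TetOn-H2BeGFP, a doxycycline-switched reporter that puts eGFP on histone H2B. All cells had 5 μg/ml doxycycline for 3 days, were stained with the dyes Claret and Violet, and then grew for 12 days while dividing cells diluted the labels. The 1% of cells that kept most Claret, most eGFP or most Violet were sorted as 3 slow-cycling populations, and Bulk cells were sorted with no gate on fluorescence. Each of the 4 groups is 1 library. No difference has a replicate check, and every p-value compares the reads of a pair of libraries and not the conditions. The groups are named from the sample titles, as are the table columns. The treatment field of each sample contradicts its title, giving Claret for the library titled Bulk, eGFP for the one titled Claret, Violet for the one titled H2B-eGFP and un-gated for the one titled Violet.

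Activator E2Fs (E2F1, E2F2 and E2F3) bind the promoters of genes needed for DNA replication, and pocket proteins bind E2Fs and hold those genes down until cyclin-dependent kinases release them. In resting cells p130, together with E2F4 or E2F5, a DP partner and the MuvB proteins, forms the repressor DREAM, whereas p107 is itself made from an E2F-regulated gene as cells enter the cycle. E2F6 binds no pocket protein and works with Polycomb proteins, and the atypical factors E2F7 and E2F8, which need no DP partner, repress E2F-regulated genes late in S phase.

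Promoter sequences of 6 of the genes are shown because E2F genes can themselves carry E2F sites. By the calls described below, E2F1, E2F2 and RBL1 fell, RBL2 rose, and E2F3 and E2F7 were not called. E2F8, which also fell, had no entry in the promoter table. The sequences come from RefSeq, assembly GRCh38.p14. They run 5′ to 3′ along the gene's strand from 200 bases before to 20 bases after the annotated start. The E2F-type words searched on both strands were TTTCCCGC, TTTCGCGC, TTTGCCGC and TTTGGCGC. A match of all 8 letters is called a full site here and a match of the last 7 letters a core. Capitals mark these last 7 letters. A match describes letters and does not show binding. The windows are chr20:33686366-33686585 for E2F1, chr1:23531214-23531433 for E2F2, chr20:37095978-37096197 for RBL1 and chr12:77065550-77065769 for E2F7, all on the minus strand, and chr6:20401679-20401898 for E2F3 and chr16:53434271-53434490 for RBL2, both on the plus strand.
E2F1: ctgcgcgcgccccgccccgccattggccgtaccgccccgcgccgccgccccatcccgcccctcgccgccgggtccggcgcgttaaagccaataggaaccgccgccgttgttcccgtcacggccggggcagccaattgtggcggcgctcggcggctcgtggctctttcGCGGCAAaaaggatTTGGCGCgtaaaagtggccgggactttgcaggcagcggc
E2F2: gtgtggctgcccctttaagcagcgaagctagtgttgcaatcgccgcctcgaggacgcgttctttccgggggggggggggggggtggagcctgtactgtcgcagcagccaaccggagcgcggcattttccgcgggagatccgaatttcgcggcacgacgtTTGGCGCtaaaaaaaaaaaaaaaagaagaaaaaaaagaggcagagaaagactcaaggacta
E2F3: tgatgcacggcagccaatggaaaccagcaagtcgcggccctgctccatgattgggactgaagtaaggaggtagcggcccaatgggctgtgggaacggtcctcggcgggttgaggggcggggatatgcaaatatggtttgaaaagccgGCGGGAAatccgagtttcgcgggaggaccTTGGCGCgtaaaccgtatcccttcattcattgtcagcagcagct
RBL1: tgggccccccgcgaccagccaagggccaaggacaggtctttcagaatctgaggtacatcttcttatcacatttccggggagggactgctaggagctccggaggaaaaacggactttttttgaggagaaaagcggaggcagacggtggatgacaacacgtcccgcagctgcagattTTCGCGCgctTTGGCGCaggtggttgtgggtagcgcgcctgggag
RBL2: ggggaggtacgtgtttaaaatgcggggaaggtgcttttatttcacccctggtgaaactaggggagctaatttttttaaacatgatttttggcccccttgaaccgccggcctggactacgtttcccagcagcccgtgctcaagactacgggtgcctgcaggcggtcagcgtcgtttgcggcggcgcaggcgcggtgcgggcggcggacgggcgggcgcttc
E2F7: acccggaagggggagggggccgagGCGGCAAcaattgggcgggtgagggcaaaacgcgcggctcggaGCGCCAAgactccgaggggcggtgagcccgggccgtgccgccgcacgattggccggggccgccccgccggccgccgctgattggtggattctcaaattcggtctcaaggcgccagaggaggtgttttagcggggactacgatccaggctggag

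Searched over windows from 250 bases before to 50 after the start, the E2F1 promoter held 2 full sites, with their cores at −33 to −27 and −19 to −13, one on each strand. All positions given are those of the core. RBL1 also held 2, at −25 to −19 and −15 to −9, both on the plus strand. The E2F2 window held 1 full site at −41 to −35, and the first of the 2 annotated E2F3 starts held 1 at −53 to −47 beside a core alone at −24 to −18. E2F7 held cores alone at −176 to −170 and −133 to −127, and E2F6 held 1 core at 15 to 21 bases after the start, neither with a full site. No match was found at either annotated start of RBL2, at E2F4 or at the second E2F3 start. E2F5 and E2F8 had no entry in the promoter table. Over all 35116 RefSeq windows of this length, 3.31% held a full site and 13.0% at least a core.

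**Figure D1:**
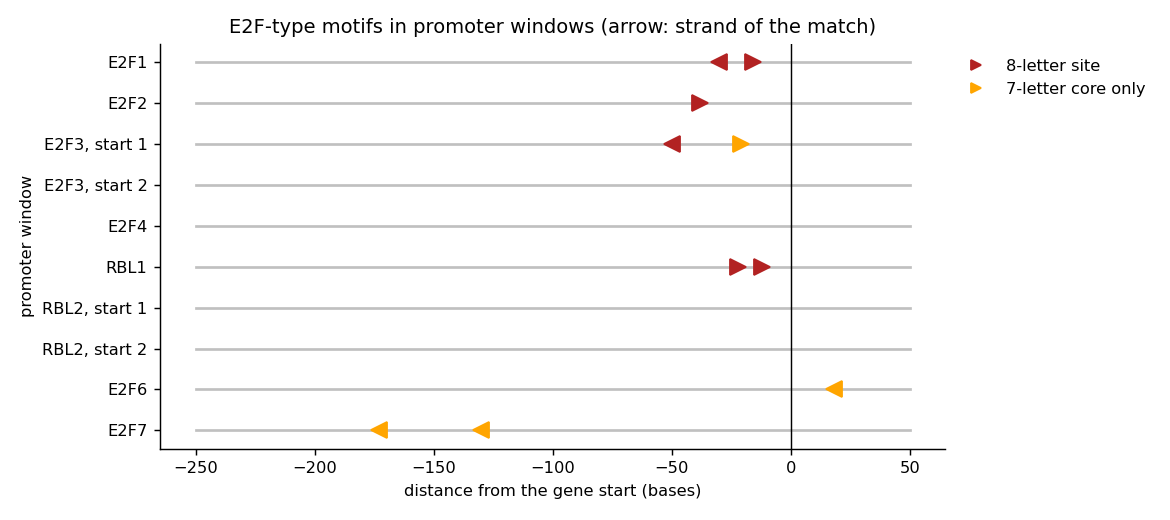
Matches to the E2F-type letters in promoter windows of 300 bases, by distance from the annotated start. Red triangles are full 8-letter sites, orange triangles the 7-letter core alone, and the direction of a triangle is the strand: full sites lie in the E2F1, E2F2, first E2F3 and RBL1 windows, and neither RBL2 window nor the E2F4 window holds a match.

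Among the kept protein-coding genes, 10202 of 12465 could be given such a window, and 6.64% of them held a full site and 25.1% at least a core. A gene with several windows counted as holding a match if any of them did, whereas the shares above are over windows. The share of genes with a full site was 18.2% among those called lower in all 3 slow-cycling libraries. It was 6.21% among those called neither lower in all 3 nor higher in all 3, which include genes called in some of the libraries only. These shares are a description, with no test.

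Summed reads were 16033922 for Bulk against 16976909, 15868881 and 15508179 for the Claret, eGFP and Violet sorts, and 3 reads, the most that a count of 0 allows, equal 0.177 to 0.191 CPM. Markers of the line were high in every library, with VIM between 156 and 211 FPKM (fragments per kilobase of transcript, scaled to sequencing depth), AXL between 119 and 148, EGFR between 66.3 and 85.9 and CD44 between 33.0 and 39.8 FPKM. The receptor genes that define triple-negative cells by the lack of their proteins had 3 to 7 reads (ESR1), 0 reads (PGR) and 8.54 to 9.06 FPKM (ERBB2). The epithelial genes EPCAM and CDH1 had 28 to 61 and 0 to 3 reads. Of genes of other cell types, the leukocyte gene PTPRC had 0 to 2 reads and the endothelial gene PECAM1 had 54 to 87. Mitochondrial genes took 4.18% of the reads in Bulk and 5.06% to 5.48% in the slow-cycling libraries, and the part of this in the results was not tested. The counts are of reads and not of molecules, so the intervals printed here cover counting error only. In sorted populations such as these, fewer cells in S phase and less transcript per cell cannot be told apart.

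Against Bulk, the same 5 of the 10 genes were called in each slow-cycling library: E2F1, E2F2, E2F8 and RBL1 fell, and RBL2 rose. A gene was called when its log2 ratio reached 1 in either direction with an adjusted p under 0.05 in an exact binomial test (Benjamini-Hochberg over all kept genes). Of all kept genes, 6.72% were called lower in Claret against Bulk, 7.64% in eGFP and 6.91% in Violet. In all 3 libraries at once, 4.93% were lower. For higher calls the shares were 11.2% in Claret, 11.9% in eGFP, 11.6% in Violet and 8.49% in all 3, so 1 of 10 members called higher is close to the background. The median log2 ratio over the 10 genes was −0.74, −0.77 and −0.87 for the Claret, eGFP and Violet sorts, beside −0.01, −0.01 and 0.01 over all kept genes. The 3 comparisons share the Bulk library, so their likeness is no independent evidence. With groups taken from the treatment field these results do not hold: in Claret the ratios of all 10 genes change sign, with RBL2 at −1.25 and E2F8 at 3.75, and no member is called in eGFP or Violet.

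**Figure D2:**
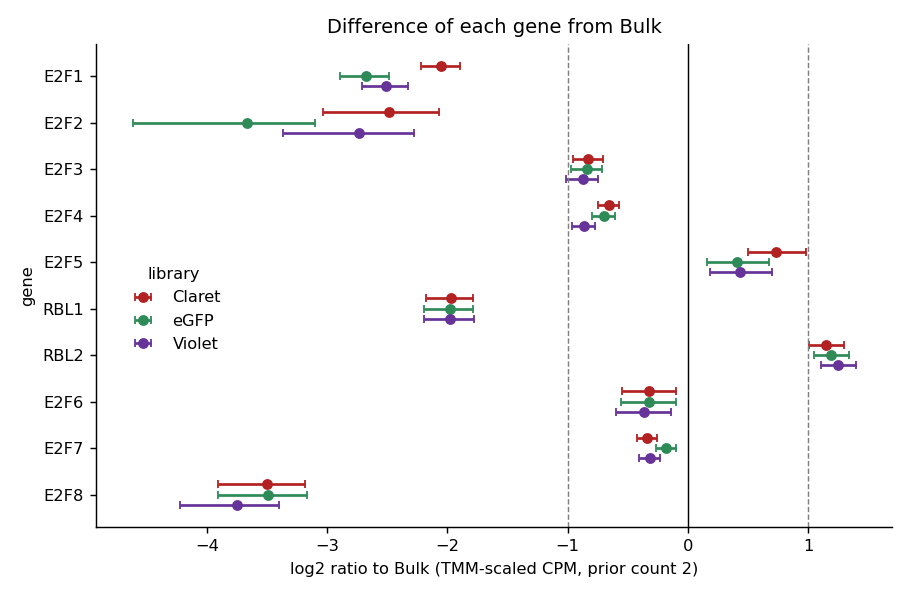
Log2 ratio to Bulk of each gene in the Claret, eGFP and Violet libraries, on TMM-scaled CPM with a prior count of 2; bars are 95% exact intervals for counting error, and dashed lines stand at a log2 ratio of 1 in either direction. E2F1, E2F2, RBL1 and E2F8 lie beyond the left line in all 3 libraries, RBL2 beyond the right one, and E2F3, E2F4, E2F5, E2F6 and E2F7 between the lines.

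Of the activators, E2F1 and E2F2 fell in all 3 slow-cycling libraries and E2F3 did not pass the size threshold. E2F1 (ENSG00000101412, chr20:33675683-33686404, minus strand), the best-studied activator, had 1478 reads in Bulk against 383, 232 and 258 in the Claret, eGFP and Violet sorts, or 37.99, 9.02, 5.80 and 6.42 FPKM. Bulk stood above all 3 slow-cycling libraries, and Claret above eGFP and Violet, with no overlap of the counting intervals. The log2 ratio to Bulk was −2.05 in Claret (95% interval −2.22 to −1.89), −2.67 in eGFP (−2.89 to −2.48) and −2.51 in Violet (−2.71 to −2.33), a level 4.14, 6.38 and 5.69 times lower. The adjusted p of the exact binomial test was 2.97e-168, 1.37e-222 and 6.48e-206.

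E2F2 (ENSG00000007968, chr1:23506430-23531220, minus strand), a weakly expressed activator here, had 237 reads in Bulk against 44, 17 and 34 in the Claret, eGFP and Violet sorts. In FPKM it was 2.79, 0.48, 0.19 and 0.39, the lowest level of the 10 genes in each slow-cycling library. The log2 ratios to Bulk were −2.48 (−3.04 to −2.07), −3.67 (−4.62 to −3.10) and −2.73 (−3.36 to −2.28), with wide intervals because few reads were counted. E2F3 (ENSG00000112242, chr6:20401906-20493715, plus strand), the third activator, had 1319, 799, 742 and 717 reads in the same order, or 16.43, 9.12, 8.99 and 8.65 FPKM. Its log2 ratios were −0.83, −0.84 and −0.88, and the largest reached −1.01 at the far end of its interval. Bulk stood above the other libraries, which overlapped each other.

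E2F1 gave 25.87% of the summed FPKM of the 8 E2F genes in Bulk against 11.96%, 8.05% and 9.62% in the Claret, eGFP and Violet sorts. E2F3 kept a nearly level share, at 11.19%, 12.09%, 12.47% and 12.96%. E2F3 therefore overlapped E2F1 in the order of levels in Claret and stood above it in eGFP and Violet, whereas in Bulk E2F1 was well above E2F3.

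Of the genes tied to quiescence, RBL2 rose and neither E2F4 nor E2F5 was called. E2F4 (ENSG00000205250, chr16:67192169-67198918, plus strand), the main E2F partner of p107 and p130, had 2487 reads in Bulk against 1695, 1542 and 1361 in the Claret, eGFP and Violet sorts. At 44.67, 27.88, 26.94 and 23.67 FPKM it was the highest of the 10 genes in every library. Its log2 ratios to Bulk were −0.66 (−0.75 to −0.57), −0.70 (−0.79 to −0.61) and −0.87 (−0.97 to −0.77). Bulk was highest, Violet lowest, and Claret and eGFP overlapped. Its share of the summed E2F FPKM was 30.41% in Bulk against 36.98%, 37.37% and 35.45% in the Claret, eGFP and Violet sorts.

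E2F5 (ENSG00000133740, chr8:85177225-85217158, plus strand), the other pocket-protein-bound repressor, had 218 reads in Bulk against 392, 293 and 295 in the Claret, eGFP and Violet sorts, or 2.37, 3.90, 3.09 and 3.10 FPKM. Its log2 ratios were 0.73 (0.50 to 0.98), 0.41 (0.16 to 0.67) and 0.43 (0.18 to 0.70), none past the size threshold. Bulk was lowest and Claret highest. E2F5 shares 969 exon bases, 16.3% of its own, with C8orf59 on the opposite strand, and whether strand was used in counting is not given in the sources used here. C8orf59 had 165, 316, 311 and 297 reads. How reads in the shared bases were assigned is not given either, and their effect on the E2F5 counts was not tested.

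RBL2 (ENSG00000103479, chr16:53433977-53491649, plus strand), which encodes p130, had 542 reads in Bulk against 1299, 1251 and 1290 in the Claret, eGFP and Violet sorts. In FPKM it was 4.76, 10.46, 10.69 and 10.98. Bulk stood below the 3 slow-cycling libraries, which overlapped each other. The log2 ratio to Bulk was 1.15 for Claret (1.01 to 1.30), 1.19 for eGFP (1.05 to 1.34) and 1.25 for Violet (1.11 to 1.40), a level 2.22, 2.28 and 2.38 times that of Bulk. The adjusted p of the exact binomial test was 9.56e-59, 4.35e-62 and 3.28e-69. Between 8.04% and 8.99% of all kept genes had a higher ratio in the same library. The call in Claret is the nearest to the threshold: it was lost in edgeR's exact test with an assumed dispersion of 0.04, and on log2(FPKM + 1) the difference was 0.99. RBL2 shares 610 exon bases, 8.33% of its own, with AKTIP on the opposite strand, which had 382, 541, 540 and 560 reads. AKTIP thus had 159, 158 and 178 reads more than in Bulk, beside 757, 709 and 748 more for RBL2. RBL2 also shares 721 exon bases, 9.85% of its own, with AC007342.6 on the opposite strand, which had 1, 0, 5 and 1 reads. The effect of shared bases on the RBL2 counts was not tested, and these gains do not measure it.

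RBL1 (ENSG00000080839, chr20:36996349-37095995, minus strand), which encodes p107, went the other way. It had 986 reads in Bulk against 269, 251 and 249 in the Claret, eGFP and Violet sorts, or 10.66, 2.66, 2.64 and 2.60 FPKM. Bulk stood far above the others, which were nearly equal. The log2 ratios were −1.97 (−2.18 to −1.79), −1.98 (−2.19 to −1.79) and −1.98 (−2.19 to −1.78), and the adjusted p of the exact binomial test was 3.10e-107, 1.94e-103 and 1.10e-102.

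The transcripts of p107 and p130 thus stood in the opposite order in Bulk and in the slow-cycling libraries. The ratio of RBL1 to RBL2 in FPKM was 2.24 in Bulk against 0.25, 0.25 and 0.24 in the Claret, eGFP and Violet sorts. A ratio of genes within a library does not depend on the library's scaling. It was 8.78 times lower in Claret than in Bulk (95% exact interval 7.40 to 10.43), 9.07 times in eGFP (7.61 to 10.81) and 9.42 times in Violet (7.91 to 11.23).

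**Figure D3:**
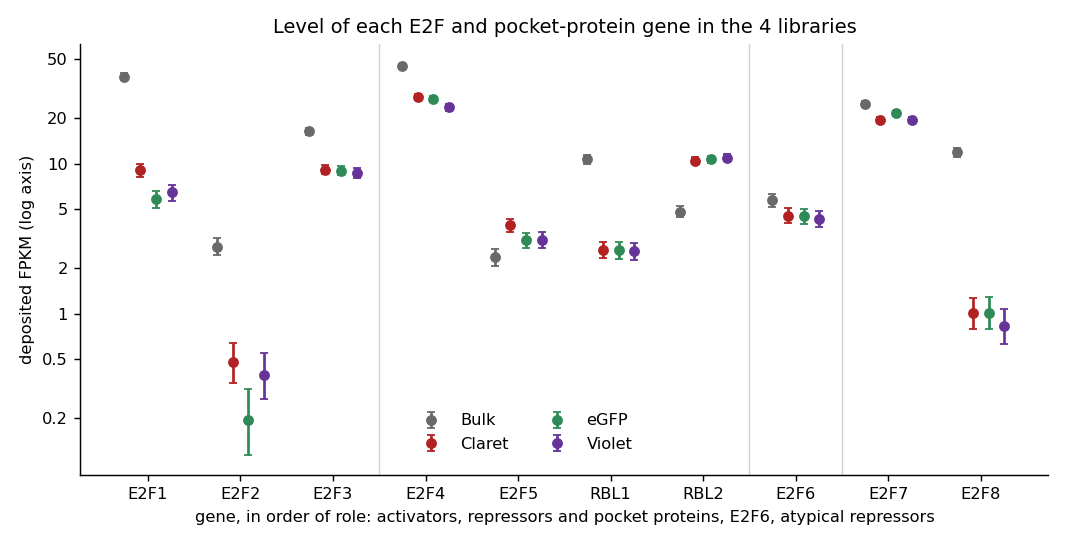
Deposited FPKM of the 10 genes in the 4 libraries, on a log axis, with 95% exact Poisson intervals for counting error; genes are ordered by role. E2F4 is the highest gene in every library, RBL1 drops from 10.66 FPKM in Bulk to 2.60 to 2.66 while RBL2 goes from 4.76 to 10.46 to 10.98, and E2F8 drops from 11.90 to between 0.83 and 1.01 while E2F7 lies between 19.43 and 25.02.

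E2F6 (ENSG00000169016, chr2:11444375-11466177, minus strand), the repressor that works with Polycomb, had 360 reads in Bulk against 310, 290 and 279 in the Claret, eGFP and Violet sorts. In FPKM it was 5.70, 4.49, 4.46 and 4.27. Its log2 ratios were −0.32 (−0.55 to −0.10), −0.32 (−0.55 to −0.10) and −0.36 (−0.60 to −0.14), and it was not called. The slow-cycling libraries overlapped each other.

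The atypical repressors parted. E2F7 (ENSG00000165891, chr12:77021247-77065580, minus strand) had 2451 reads in Bulk against 2088, 2174 and 1966 in the Claret, eGFP and Violet sorts, or 25.02, 19.52, 21.58 and 19.43 FPKM. Its log2 ratios were −0.34 (−0.42 to −0.25), −0.19 (−0.27 to −0.10) and −0.32 (−0.40 to −0.23), so it was not called. Bulk was highest, and Claret and Violet overlapped.

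E2F8 (ENSG00000129173, chr11:19224063-19241620, minus strand), the paralogue of E2F7, had 766 reads in Bulk against 71, 67 and 55 in the Claret, eGFP and Violet sorts. In FPKM it was 11.90, 1.01, 1.01 and 0.83. Bulk stood above the others, which overlapped. The log2 ratios were −3.50 (−3.91 to −3.19), −3.49 (−3.91 to −3.17) and −3.75 (−4.22 to −3.40), a level 11.32, 11.23 and 13.47 times lower. The adjusted p of the exact binomial test was 2.14e-158, 2.94e-151 and 1.32e-159. Between 0.01% and 0.08% of all kept genes had a lower ratio in the same library.

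The read ratio of E2F7 to E2F8 was 3.20 in Bulk against 29.41, 32.45 and 35.75 in the Claret, eGFP and Violet sorts. It was 9.19 times higher than in Bulk in Claret (95% exact interval 7.14 to 11.97), 10.14 times in eGFP (7.83 to 13.30) and 11.17 times in Violet (8.43 to 15.06). This pair was chosen after its values were seen, so the ratio is a description.

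Summed over the genes of each role, the E2F transcripts were fewer and differently made up in the slow-cycling libraries. The 8 genes together had 146.88 FPKM in Bulk against 75.41, 72.08 and 66.75 FPKM in the Claret, eGFP and Violet sorts. Activators made up 38.96% of this in Bulk against 24.68%, 20.79% and 23.16% in the Claret, eGFP and Violet sorts. E2F4 and E2F5 made up 32.03% in Bulk and 42.14%, 41.67% and 40.10%. The share of E2F7 and E2F8 was 25.14% in Bulk and 27.23%, 31.35% and 30.35%, within which E2F8 went from 8.11% to 1.34%, 1.41% and 1.24%.

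The ratio of activators to E2F4 and E2F5 in FPKM was 1.22 in Bulk against 0.59, 0.50 and 0.58 in the Claret, eGFP and Violet sorts. The ratio of E2F7 and E2F8 to E2F4 and E2F5 moved little, at 0.78, 0.65, 0.75 and 0.76. In read counts the latter was slightly above Bulk in eGFP and in Violet (1.03 times in each), so its direction there depends on the unit.

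**Figure D4:**
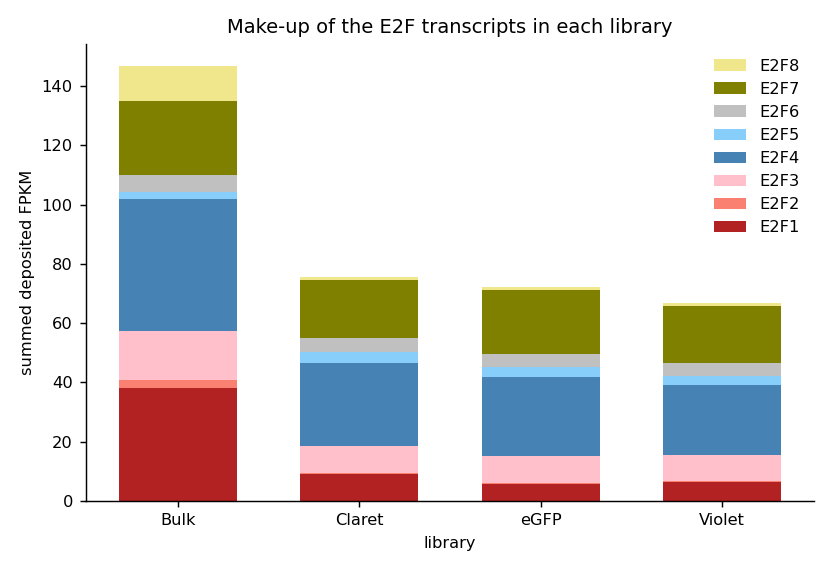
Summed deposited FPKM of the 8 E2F genes in each library, stacked by gene. The total is 146.88 in Bulk and 66.75 to 75.41 in the slow-cycling libraries, with E2F1 and E2F8 taking a smaller part of the bar there and E2F4 and E2F7 a larger one.

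In Bulk the order of levels in FPKM was E2F4, E2F1, E2F7, E2F3, E2F8, RBL1, E2F6, RBL2, E2F2 and E2F5. The counting intervals overlapped for the neighbours E2F8 and RBL1, E2F6 and RBL2, and E2F2 and E2F5. In eGFP and Violet the order was E2F4, E2F7, RBL2, E2F3, E2F1, E2F6, E2F5, RBL1, E2F8 and E2F2, with overlap between E2F5 and RBL1. Claret had the same order, with overlap between E2F3 and E2F1 and between E2F6 and E2F5.

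Between the slow-cycling libraries, 1 of the 10 genes was called in 1 of the 3 pairs. Of all kept genes, 0.761% were called between Claret and eGFP, 0.802% between Claret and Violet and 1.01% between eGFP and Violet. That gene was E2F2, higher in Claret than in eGFP by a log2 ratio of 1.19 (0.44 to 2.18; adjusted p of the exact binomial test 0.0150), on 44 reads against 17. The E2F2 ratio was 0.25 (−0.42 to 0.95) for Claret against Violet and −0.94 (−1.95 to −0.13) for eGFP against Violet, neither called, so eGFP had the lowest level of the 3. The call was lost in edgeR's exact test with an assumed dispersion and on log2(FPKM + 1), where the difference was 0.30, and E2F2 was left out by a filter at 10 CPM. E2F1 was also higher in Claret, by 0.62 against eGFP (0.39 to 0.87) and 0.46 against Violet (0.23 to 0.69), below the size threshold. E2F4 was lowest in Violet, by 0.21 against Claret (0.10 to 0.31) and 0.17 against eGFP (0.06 to 0.27), and E2F5 was highest in Claret, by 0.32 against eGFP (0.10 to 0.55) and 0.30 against Violet (0.08 to 0.52). E2F7 differed by −0.15 (−0.24 to −0.07) between Claret and eGFP and by 0.13 (0.04 to 0.22) between eGFP and Violet. None of these passed the size threshold. For E2F3, E2F6 and E2F8 every interval between slow-cycling libraries included 0, the widest being −0.27 to 0.81 for E2F8 in eGFP against Violet. RBL1 differed by 0.00 between Claret and eGFP, with an interval of −0.25 to 0.26. RBL2 differed by −0.04 (−0.15 to 0.07) between Claret and eGFP, −0.10 (−0.21 to 0.01) between Claret and Violet and −0.06 (−0.17 to 0.06) between eGFP and Violet.

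The partners of these factors were read from 8 short lists named for their roles. Of the dimer partners, TFDP1, which encodes the main DP partner, fell: it had 3139 reads in Bulk against 1189, 1108 and 1091 in the Claret, eGFP and Violet sorts, with log2 ratios of −1.51, −1.51 and −1.52. TFDP2, the alternative DP partner, had 596, 1013, 929 and 941 reads and ratios of 0.66, 0.63 and 0.66, not past the size threshold. RB1, the founding pocket protein, had 1988, 1336, 1073 and 1187 reads and ratios of −0.68, −0.90 and −0.74, and it was not called. TFDP3 had 0 to 2 reads and was not tested. The median of the mean log2 ratio over the 3 slow-cycling libraries was −0.77 for the 3 tested genes of this list, beside −0.01 over all kept genes. With no filter, which brings in TFDP3, it was −0.13.

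Of the 9 genes for MuvB and its partners, 5 fell in all 3 libraries and none rose, with a median of −1.23. Beside this, 4.93% of all kept genes were called lower and 8.49% higher in all 3. The lack of higher calls is therefore close to the background. The partners that activate late cell-cycle genes fell furthest. MYBL2, which encodes B-MYB, had 3494 reads in Bulk against 393, 234 and 342 in the Claret, eGFP and Violet sorts, with log2 ratios of −3.25, −3.90 and −3.34. FOXM1 had ratios of −2.97, −3.32 and −2.93. The MuvB core genes LIN9 (−1.47, −1.77 and −1.36) and LIN54 (−1.09, −1.38 and −1.23) also fell, as did MYBL1. LIN52, RBBP4, LIN37 and DYRK1A, the kinase that promotes DREAM assembly, were not called. DYRK1A had ratios of −0.46, −0.59 and −0.43.

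Of the 9 genes for the kinases that release pocket proteins, 8 were tested, 3 fell in all 3 libraries and none rose, with a median of −1.04. Beside this, 4.93% of all kept genes were called lower and 8.49% higher in all 3, so the lack of higher calls is close to the background. The genes that fell were CCNE2 (−3.21, −3.31 and −2.68), which encodes a cyclin E, and its kinase partner CDK2 (−1.44, −1.46 and −1.40). SKP2 (−1.68, −1.99 and −1.61), which marks CDK inhibitors for degradation, also fell. CCNE1 was called in Violet alone, with ratios of −0.92, −0.90 and −1.75, and the difference between libraries was not tested as an interaction. The D-type cyclin gene CCND1 had ratios of −0.49, −0.48 and −0.49, and CCND3, CDK4 and CDK6 were not called either. CCND2 had 0 reads in every library.

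Genes that E2Fs are known to drive at the start of S phase fell almost throughout. Of 30 such genes 29 were tested, and 26 fell in all 3 libraries and none rose, with a median of −2.17. The shares over all kept genes were 4.93% lower and 8.49% higher in all 3. The lowest were RRM2, a subunit of ribonucleotide reductase (−3.07, −3.82 and −3.27), and the replication factors MCM10 (−2.98, −3.48 and −3.16) and CDC45 (−2.87, −3.75 and −2.86). Those nearest to 0 were MSH6, POLA2 and SLBP. SLBP was called in Claret alone, but its ratios (−1.09, −0.97 and −0.99) lay close to the size threshold on either side. The difference between libraries was not tested. Of the 25 genes of this list with a promoter window, 14 held a full E2F site.

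The 20 genes of the G2/M list, which DREAM and later B-MYB and FOXM1 bind through the CHR element, all fell in all 3 libraries, with a median of −2.25. Among all kept genes, 4.93% were called lower in all 3. KIF20A, CDC20 and AURKB had the lowest mean ratios, and KIF20A reached −2.98, −3.08 and −2.88. NEK2 was among the 3 nearest to 0, at −1.43, −1.97 and −1.34, beside PTTG1 and HMMR. Of the 17 with a promoter window, 2 held a full E2F site. These lists hold genes of dividing cells, and how far they move with the share of cycling cells in each sort was not tested.

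**Figure D5:**
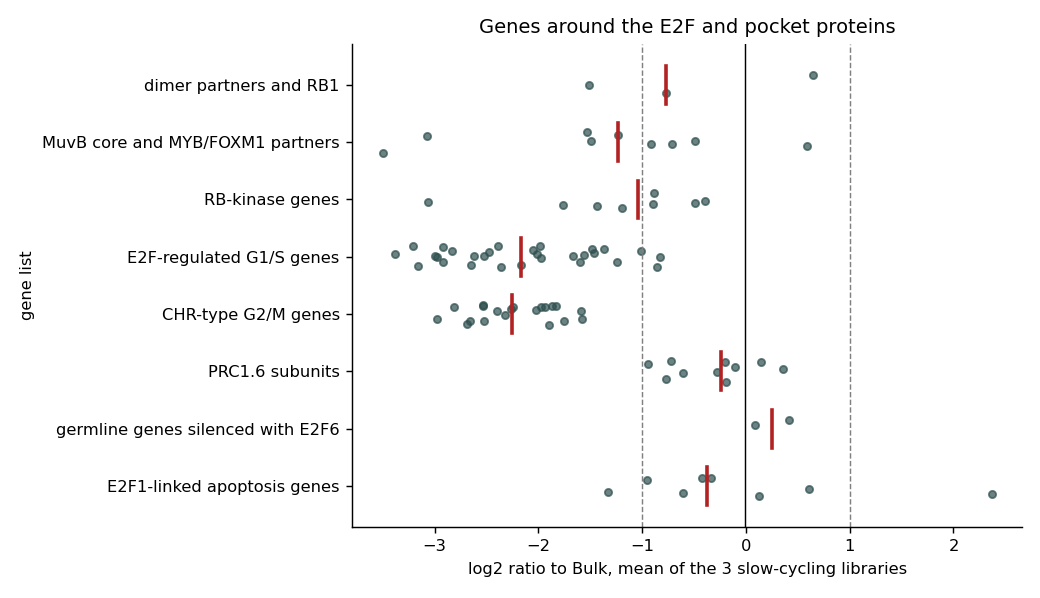
Mean log2 ratio to Bulk over the 3 slow-cycling libraries for each tested gene of the 8 lists; the red bar is the list median, the solid line the median of all kept genes and the dashed lines a log2 ratio of 1 in either direction. All 29 tested G1/S genes and all 20 G2/M genes lie below 0, with medians of −2.17 and −2.25, while the genes of the Polycomb complex that holds E2F6 lie between −0.94 and 0.35.

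Of the 10 genes of PRC1.6, the Polycomb complex that holds E2F6, 0 were called, with a median of −0.24. Over all kept genes 4.93% were called lower and 8.49% higher in all 3 libraries, so a count of 0 of 10 is near the background. WDR5 had the lowest mean ratio (−0.94) and RING1 the highest (0.35). Of 7 germline genes known to be silenced with E2F6, 2 had enough reads to be tested. STAG3 had 38, 54, 47 and 58 reads and MAEL had 16, 16, 21 and 16, neither called, and SMC1B, SLC25A31, HORMAD1, DDX4 and TAF7L had 0 to 5 reads in any library.

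Of 9 genes linked to cell death downstream of E2F1, 8 were tested, with a median of −0.38. In all 3 libraries, 1 was called lower and 1 higher. Over all kept genes 4.93% were called lower and 8.49% higher in all 3, so these counts are close to the background. TP73, which E2F1 is known to activate, fell, with 107 reads in Bulk against 56, 33 and 42 in the Claret, eGFP and Violet sorts and log2 ratios of −1.01, −1.65 and −1.31. BBC3, which encodes PUMA and also answers to p53 and FOXO factors, rose, with 53, 266, 362 and 254 reads and ratios of 2.18, 2.71 and 2.22. APAF1 (−0.95, −0.98 and −0.92) and PMAIP1 (0.56, 0.63 and 0.62) stayed short of the size threshold, as did CASP8 and BCL2L11. HRK had 0 to 2 reads and was not tested.

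Profiles over the 4 libraries were compared with those of 9746 protein-coding genes averaging at least 10 CPM, by the Euclidean distance between centred log2 CPM. Nearest to E2F1 were POP1 (0.13), CENPU (0.15) and ASF1B (0.16). ASF1B, which encodes a histone chaperone, had log2 ratios to Bulk of −2.09, −2.59 and −2.34. Nearest to E2F8 were GINS2 (0.27), RAD54L (0.35) and CLSPN (0.38), and GINS2, a part of the replicative helicase, had ratios of −3.32, −3.46 and −3.42. Nearest to RBL2 were NABP1 (0.04), ACSS3 (0.05) and RGS9 (0.05). With 4 libraries, 3 of which resemble each other, many genes have such profiles, and the distances are a description.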

How the data were processed

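Gene expression was measured by RNA sequencing in 4 libraries of MDA-MB-231, 1 per group, so p-values compare these libraries only. The authors deposited whole-number read counts per gene, unnormalized per the file headers and the values. Reads were aligned with HISAT2 2.0.5 and counted with featureCounts 1.5.0-p3, per the submitters' processing notes. The use of strand and of reads with several matches is not given in the sources used here. Start and end equal those of GENCODE 29 (GRCh38) for 58735 of 58735 genes. The authors' deposited FPKM values were made from the same counts: FPKM times length over count is 1 constant per library, for a total of 96.9% to 103.5% of the summed reads.

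Genes averaging at least 1 CPM were kept. Library sizes were scaled by TMM (edgeR 4.0.16, R 4.3.3), and log2 ratios used a prior count of 2. Quasi-likelihood testing in edgeR needs replicates. Reads of each pair of libraries were therefore compared by a two-sided exact conditional binomial test (scipy 1.17.1, Python 3.11.15). The Benjamini-Hochberg adjustment ran over all 14585 kept genes. Genes were called at an adjusted p under 0.05 and a log2 ratio of at least 1 in size. Intervals are 95% exact and cover counting error only. They are Clopper-Pearson for ratios between libraries, conditional odds-ratio intervals for changes of a within-library ratio, and Poisson for levels. The intervals of log2 ratios use no prior count, unlike the ratios themselves. The scripts were tested on simulated data.

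The genes named are the 10 members, every gene of a list of up to 10 genes, the 3 highest and 3 lowest of longer lists, the 3 genes nearest in profile to E2F1, E2F8 and RBL2, and genes that overlap a member. Of the genes this rule selects, some are not reported here. The members and lists were chosen with earlier results of these data known. The alternatives were summed counts or DESeq2 1.42.0 size factors, no filter or 10 CPM, and a prior count of 0.5. Others were a GC correction (statsmodels 0.14.6), log2(FPKM + 1), edgeR's exact test with an assumed dispersion of 0.04, and groups taken from the treatment field. On log2(FPKM + 1) no p-value was computed, so a call there rests on the size threshold alone. Promoter windows are RefSeq's, GRCh38.p14. The share of windows with a site is not given for genes called higher, because 74.1% of them matched a window.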

Additional observations from a re-analysis of the deposited data

Results flagged for a closer look

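E2F2 was the one gene of the 10 that differed past both thresholds between slow-cycling libraries. Its log2 ratio of Claret to eGFP was 1.19, on 44 reads against 17, with an adjusted p of 0.0150 in the exact binomial test. With all genes of at least 1 read in the adjustment, the adjusted p was 0.0307, and in edgeR's exact test with an assumed dispersion of 0.04 it was 1.0. On log2(FPKM + 1) the difference was 0.30, and the call was lost. The difference rests on 1 library per sort and on few reads.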

How the results depend on the processing

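No paired analysis was possible because each group holds 1 library, and for the same reason no replicate could be left out. All 30 log2 ratios of the members to Bulk kept their direction and their call with summed counts, DESeq2 size factors, no filter, a prior count of 0.5 and the GC correction. So did the 27 ratios left by a filter at 10 CPM, which removed E2F2, and 29 of 30 in edgeR's exact test with dispersion 0.04 and on log2(FPKM + 1). The exception in both was RBL2 in Claret, whose call was lost. No test was run on log2(FPKM + 1), so calls in that setting, here and below, rest on the size threshold alone. On log2(FPKM + 1) the E2F2 ratios were smaller, at −1.36, −1.67 and −1.45 in Claret, eGFP and Violet.

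Numbers of genes called against Bulk in Claret, eGFP and Violet were 2620, 2846 and 2704. They were 1251, 1428 and 1330 at 10 CPM, 1497, 1730 and 1581 in edgeR's exact test, and 1208, 1358 and 1276 on log2(FPKM + 1). Between Claret and eGFP, Claret and Violet, and eGFP and Violet they were 111, 117 and 148. They were 8, 11 and 7 at 10 CPM, 7, 4 and 5 in edgeR's exact test, 24, 19 and 22 on log2(FPKM + 1), and 191 for Claret and Violet with no filter. Fewer genes are tested at 10 CPM, and the other causes were not tested. The single member called between Claret and eGFP became 0 members at 10 CPM, in edgeR's exact test and on log2(FPKM + 1).

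List medians, as the mean log2 ratio over the slow-cycling libraries, moved as follows. The G1/S median was −2.36 at 10 CPM, −2.25 with the GC correction and −2.02 on log2(FPKM + 1). The MuvB median was −1.49 at 10 CPM and −0.93 on log2(FPKM + 1). The RB-kinase median was −0.89 and −0.87 in the same settings, the G2/M median was −2.10 on log2(FPKM + 1), and the median of the dimer partners and RB1 was −0.13 with no filter. In read counts in place of FPKM, the ratio of activators to E2F4 and E2F5 relative to Bulk was 0.48 in eGFP and 0.54 in Violet. The same change for E2F7 and E2F8 to E2F4 and E2F5 turned to 1.03 in eGFP and 1.03 in Violet.

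Groups taken from the treatment field, in which the un-gated sample is the library titled Violet, turned 25 of the 30 directions. Claret against Bulk then gave log2 ratios of 2.51 for E2F1, 2.73 for E2F2, 0.88 for E2F3, 0.87 for E2F4, −0.43 for E2F5, 0.36 for E2F6, 0.32 for E2F7, 3.75 for E2F8, 1.98 for RBL1 and −1.25 for RBL2. For eGFP those that turned were 0.46 for E2F1, 0.25 for E2F2, 0.047 for E2F3, 0.21 for E2F4, 0.043 for E2F6, 0.25 for E2F8, 0.0024 for RBL1 and −0.10 for RBL2. For Violet those that turned were 0.036 for E2F3, 0.17 for E2F4, −0.023 for E2F5, 0.042 for E2F6, 0.13 for E2F7, 0.26 for E2F8 and −0.058 for RBL2. The directions that held were E2F5 at 0.30 and E2F7 at −0.022 in eGFP, and E2F1 at −0.17, E2F2 at −0.94 and RBL1 at −0.0022 in Violet. Members called were 0 for eGFP and 0 for Violet against Bulk, 5 between Claret and eGFP, 5 between Claret and Violet and 1 between eGFP and Violet. Genes called were 117 and 148 against Bulk in eGFP and Violet, 2620 between Claret and eGFP and 2846 between Claret and Violet. List medians were 0.21 for the dimer partners and RB1, 0.37 for MuvB, 0.34 for RB-kinase genes, 0.74 for G1/S, 0.60 for G2/M, 0.060 for PRC1.6, −0.14 for the germline genes and 0.050 for the apoptosis genes. These values follow from the exchange of labels alone.

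With 17 to 71 reads in the slow-cycling libraries, E2F2 and E2F8 are the members whose differences between those libraries depth limits most.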
